A study of Mus musculus with 16 samples.

Results

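Rn45s is the mouse gene record for the 45S precursor of ribosomal RNA, and it is 1 of the 24062 genes counted in RNA sequencing of mouse spermatozoa. It was chosen by its name, with its share of gene reads by diet already known, so its diet values stand here as a description without a test. All animals were male mice that began a diet at 3 weeks of age and ate it for 9 weeks. One group ate a modified form of the D12492 diet, high in fat and calories (HFD, 8 libraries) and the other the control diet to D12492 (CD, 8 libraries), and strain is not given in the sources used here. RNA of motile sperm was taken up after sonication on miRNeasy columns, 2 ng of it per library was treated with DNase and amplified to cDNA, of which 250 ng entered library construction. Each library was treated as 1 mouse, because the series gives 8 mice per diet. The study asks how the diet of a male alters the RNA of its sperm.

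Ribosomal RNA is made in the nucleolus by RNA polymerase I from tandem repeats of ribosomal DNA. The long precursor is cut, trimmed and chemically modified into the 18S, 5.8S and 28S RNAs of the ribosome, with the help of snoRNA-guided enzymes and assembly factors. Reads of Rn45s can therefore come from the precursor, from these mature RNAs or from their fragments, which were not told apart here. Mature sperm are largely silent in transcription and shed most cytoplasm, and in sperm RNA fragments of ribosomal RNA are known alongside other small RNAs. In cells in general, ribosomal RNA is by far the most abundant class of RNA, and it lacks the poly(A) tail of most mRNAs.

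The Rn45s symbol had no entry in the RefSeq or GENCODE M21 gene tables used here, so neither its position nor its sequence is given. Its length is unknown for the same reason, and its reads are therefore shares of a library and not levels per length. Of the 20 symbols listed as ribosomal DNA records or as genes known to attract such reads, 11 had a row. Of these, 10 had enough reads to be tested by diet, Rn4.5s being the exception, and the 9 other than Rn45s were fitted against Rn45s. No row was found for Rn18s, Rn28s1, Gm42418, Gm26917 or AY036118. The sequence shown is that of miR-6236. The row of its host record Mir6236 had the second highest Pearson r with Rn45s over 16 libraries of all genes tested. It is the mature miRNA of RefSeq on GRCm38.p6, at chr9:110281353-110281371 on the plus strand, with its seed, bases 2 to 8, in capitals.
mmu-miR-6236: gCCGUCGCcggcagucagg
G and C made up 78.9% of its 19 bases.

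Gene reads per library ran between 1882555 and 5153818 in HFD and between 3172721 and 7783981 in CD. The label of spermatozoa was met in part. All 36 late spermatid and sperm markers had reads and summed to 4557 to 66307 CPM in HFD libraries and 3117 to 18362 CPM in CD libraries, where CPM are counts per 1000000 gene reads other than those of Rn45s. Markers of the epididymal epithelium, the lining of the duct in which sperm mature, summed to 14642 to 106994 CPM in HFD and 64629 to 116128 CPM in CD, and the 2 lowest of all 16 libraries were HFD 8 at 14642 and HFD 4 at 18638 CPM. Cst8 was in both lists, so its reads count in both sums. In bulk RNA, fewer cells of a type and less RNA per cell cannot be told apart. HFD 4 and HFD 8 stood apart from the other 14 libraries, with 31178 and 66307 CPM of late spermatid markers against at most 18362 CPM elsewhere, and with 76.1% and 74.96% of their reads in no annotated feature against 58.0% to 67.9%. Results that rest on them are given with and without them.

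Rn45s had more reads than any other gene in 16 of 16 libraries. Its share of gene reads was lowest at 6.17%, had a median of 10.9% and was highest at 17.5% in HFD libraries, and was lowest at 2.31%, had a median of 14.8% and was highest at 24.1% in CD libraries. The groups overlapped: all 8 HFD values lay inside the CD range, while 3 CD libraries lay above the highest HFD library and 2 lay below the lowest. The mean was 11.3% ± 4.82 in HFD and 13.6% ± 7.88 in CD (SD, n = 8 each). On the log2 scale the HFD mean share differed from the CD mean by -0.04, and the fit of edgeR across all genes gave Rn45s a log2 fold change of HFD over CD of -0.27 ± 0.47 (SE). The HFD mean without HFD 4 and HFD 8 was 12.9% ± 4.37 (SD, n = 6), and the log2 difference was then 0.20. Leaving out single libraries also turned its sign, and without CD 2 it was -0.35.

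**Figure D1:**
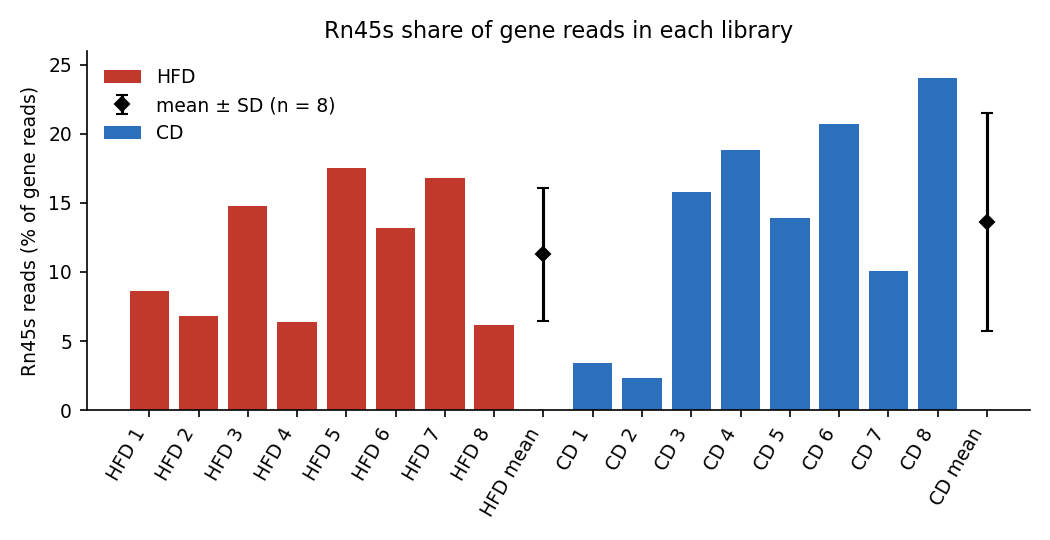
Rn45s reads as percent of gene reads in each HFD and CD library (bars), with the mean and SD of each diet (diamonds, n = 8). HFD libraries span 6.17% to 17.5% and lie inside the span of CD libraries, 2.31% to 24.1%.

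From high to low, the shares ran CD 8 at 24.1%, CD 6 at 20.7%, CD 4 at 18.8%, HFD 5 at 17.5%, HFD 7 at 16.8%, CD 3 at 15.7%, HFD 3 at 14.8% and CD 5 at 13.9%. The lower values were HFD 6 at 13.2%, CD 7 at 10.1%, HFD 1 at 8.63%, HFD 2 at 6.80%, HFD 4 at 6.39%, HFD 8 at 6.17%, CD 1 at 3.42% and CD 2 at 2.31%. Neighbours in this order never overlapped in their 95% Clopper-Pearson intervals, whose widest half-width was 0.0470 percentage points, but these intervals cover counting error only. Every step between neighbours was smaller than the SD between libraries of either diet, so no neighbours differed beyond the spread of libraries. Highest over lowest was 2.84-fold within HFD and 10.4-fold within CD.

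The low end of the CD range rested on CD 1 and CD 2, and without them the CD mean was 17.2% ± 5.001 (SD, n = 6). Neither was low in depth, with 3444987 and 7783981 gene reads. As a share of all reads in a column, which counts reads outside genes too, Rn45s took 0.512% to 2.25% in HFD and 0.385% to 2.47% in CD. Means on this scale were 1.41% ± 0.693 in HFD and 1.68% ± 0.856 in CD (SD, n = 8 each).

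Rn45s outnumbered the gene with the next most reads by 4.003-fold to 16.8-fold in HFD libraries and by 1.23-fold to 26.4-fold in CD libraries. In HFD that next gene was Crisp1, a sperm-coating protein of the epididymis, in 4 libraries, the epididymal protease inhibitor Spink8 in 3 and the protamine Prm1, which packs sperm DNA, in 1, HFD 8. In CD it was Spink8 in 4 libraries, Crisp1 in 2 and Wfdc13, which encodes a WAP-domain protein, in 2. CD 2 had the narrowest margin, with 179684 reads of Rn45s beside 146335 of Spink8. Taking the reads of Rn45s out of the total multiplied the CPM of every other gene by between 1.02 in CD 2 and 1.32 in CD 8, and these factors differed by up to 1.29-fold between libraries.

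Reads that aligned to more than one place were kept out of genes by the counting, so the share of Rn45s holds uniquely aligned reads only. Multiply aligned reads made up 20.1% ± 4.69 of all reads in HFD and 22.5% ± 2.55 in CD (SD, n = 8 each). Reads in no feature made up 67.6% ± 5.72 in HFD and 64.2% ± 2.60 in CD. Reads of genes other than Rn45s made up 10.8% ± 2.18 in HFD and 11.6% ± 3.58 in CD. Ambiguous reads made up 0.0611% ± 0.00799 in HFD and 0.0632% ± 0.0142 in CD. These 4 shares and that of Rn45s together made up all reads of a column, so reads that did not align are not in these totals. By two-sided exact permutation tests, 0 of these 4 shares differed between the diets, with unadjusted p from 0.147 for no feature to 0.729 for ambiguous reads and a smallest adjusted p of 0.464. One library decided this: without HFD 3, which held 30.7% of multiply aligned reads, the HFD share was lower by 3.86 percentage points for multiply aligned reads and higher by 4.84 for reads in no feature, both with an adjusted exact permutation p of 0.0267.

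Libraries rich in Rn45s tended to be rich in multiply aligned reads and poor in other gene reads, without passing the correction over 27 measures. Rn45s is taken from here on as the log2 ratio of its reads to all other gene reads, which ran from 65.8 to 212 reads per 1000 in HFD and from 23.6 to 317 per 1000 in CD. With the percent of multiply aligned reads, this ratio had Pearson r = 0.521 and Spearman rho = 0.671 over 16 libraries (permutation p = 0.0386 and 0.00613, adjusted 0.149 and 0.0828). Without CD 1 and CD 2, the libraries farthest from the median of the ratio, r was 0.745 (adjusted permutation p = 0.0184), and within the diets it was 0.637 in HFD and 0.654 in CD. With the percent of reads in no feature, r was -0.244 over 16 libraries (permutation p = 0.364, adjusted 0.527), -0.713 without CD 1 and CD 2 (adjusted permutation p = 0.0184) and 0.009 without HFD 4 and HFD 8, with -0.689 in HFD alone and 0.119 in CD alone. With the log2 number of other gene reads, r was -0.590 and rho -0.541 (permutation p = 0.0160 and 0.0328, adjusted 0.0863 and 0.151). That relation rested on few libraries: r was -0.281 without CD 1 and CD 2, -0.822 without HFD 4 and HFD 8 (adjusted permutation p = 0.00524), -0.290 in HFD alone and -0.829 in CD alone. In CD alone the order of the 8 libraries by Rn45s was the exact reverse of their order by other gene reads. The number of other gene reads is itself the denominator of the ratio. With Rn45s taken as a share of all reads instead, r with the other gene reads was -0.347 over 16 libraries.

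**Figure D2:**
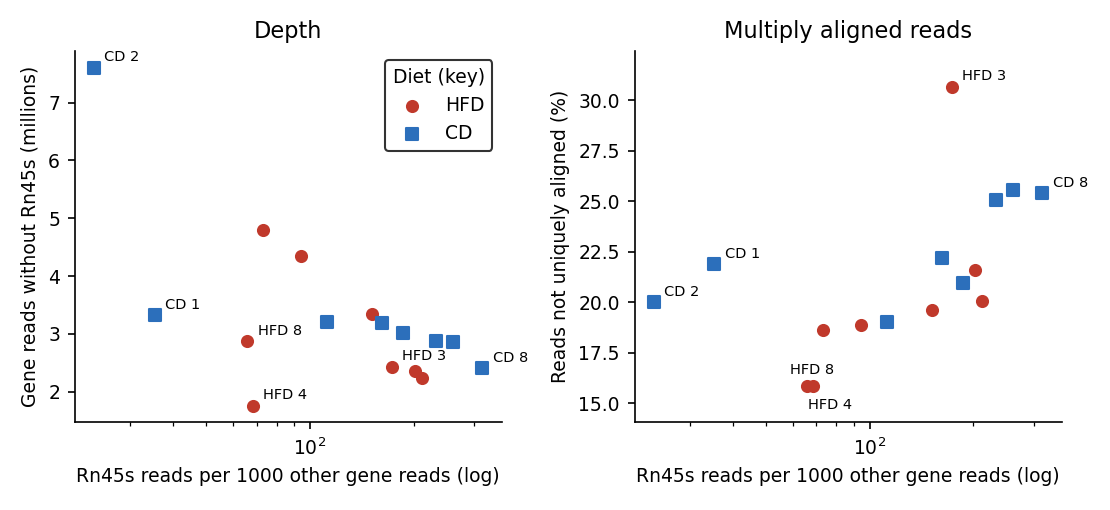
Each HFD (circles) and CD (squares) library by its Rn45s reads per 1000 other gene reads (log axis) against its gene reads without Rn45s (left) and its percent of reads not uniquely aligned (right). CD 2 combines the lowest Rn45s ratio, 23.6, with the most gene reads, and HFD 3 has the highest percent of multiply aligned reads, 30.7%.

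Across all genes, the level of 1 gene changed with Rn45s past the threshold. Each gene was fitted with edgeR on the Rn45s ratio with diet held, and a slope of 1 means that a gene doubled when the ratio doubled. Lars2, the mitochondrial leucyl-tRNA synthetase, was the 1 gene of 13055 called (0.00766%), and 939 genes (7.19%) had an unadjusted p under 0.05, 445 with positive and 494 with negative slopes. DESeq2 called 73 genes on the same libraries, Lars2 among them, 23 with positive and 50 with negative slopes. Without HFD 4 and HFD 8, edgeR called 118 of 13404 genes (0.880%), 44 with positive slopes (0.328%) and 74 with negative ones (0.552%). With the sum of the late spermatid markers held as well, it called 226 of 13055 (1.73%), 111 positive (0.850%) and 115 negative (0.881%). The slope itself differed between HFD and CD libraries for 530 of 13055 genes (4.06%), higher in HFD for 6 (0.0460%) and lower for 524 (4.01%). Adjusted p of edgeR for the 530 lay between 0.0484 and 0.0499, just under the threshold. Without HFD 4 and HFD 8, 0 of 13404 genes passed the same test of edgeR, with 218 at an unadjusted p under 0.05.

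Lars2 (chromosome 9, 123366927 to 123462666 on GRCm38, protein-coding, with no annotated gene overlapping it) had 1379, 2904 and 4567 CPM without TMM scaling as its lowest, median and highest value in HFD. In CD the lowest, median and highest were 593, 3381 and 5142. CD 2 and CD 1 were lowest and CD 8 was highest, as for Rn45s, and all 8 HFD values lay inside the CD range. Its slope was 0.75 ± 0.09 log2 units per doubling of the Rn45s ratio (SE), with an edgeR adjusted p of 0.00497. The call was lost without CD 1 (slope 0.73, edgeR adjusted p = 0.112) and without CD 2 (0.73, adjusted p = 0.272), and held without HFD 4 and HFD 8 (0.77 ± 0.06, adjusted p = 2.82e-06). It was also lost in HFD libraries alone (0.68 ± 0.30, edgeR adjusted p = 0.213) and held in CD libraries alone (0.79 ± 0.08, adjusted p = 0.00440). The test of the difference between these slopes, HFD minus CD, gave -0.14 ± 0.21 with an edgeR adjusted p of 0.659.

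Set against Rn45s itself, Lars2 moved far less than either record did. Lars2 had 2.30 ± 0.395 reads per 100 reads of Rn45s in HFD and 2.03 ± 0.390 in CD (SD, n = 8 each), and its range over 16 libraries was 1.91-fold. The lowest value was 1.499 in CD 6 and the highest 2.86 in HFD 8. Over the same libraries the CPM of Lars2 ranged 8.67-fold and Rn45s per other gene read 13.4-fold. The correlation of log2 Lars2 with the log2 Rn45s ratio was r = 0.976 and rho = 0.968 over 16 libraries, and r was 0.949 without CD 1 and CD 2, 0.954 in HFD and 0.989 in CD. It is given without a p, because the relation was noticed in these data and Lars2 was listed with earlier results known.

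Mir6236 (chromosome 9, 110281287 to 110281409 on GRCm38, a miRNA record of 123 bases with no overlapping annotated gene) encodes the miRNA whose sequence is shown above. Its lowest, median and highest values were 322, 723 and 1136 CPM without TMM scaling in HFD and 170, 1132 and 2619 in CD. CD 1 and CD 2 were lowest and CD 8 highest, and all 8 HFD values lay inside the CD range. Its slope was 0.85 ± 0.14, which missed the threshold with an edgeR adjusted p of 0.102. It was 0.91 ± 0.12 and passed without HFD 4 and HFD 8, with an edgeR adjusted p of 0.0136, as it also did without HFD 8 (adjusted p = 0.0158) and without CD 5 (adjusted p = 0.0440). Per 1000 reads of Rn45s there were 6.19 ± 2.07 reads of Mir6236 in HFD and 6.54 ± 2.12 in CD (SD, n = 8 each), a range of 3.25-fold against 15.4-fold for its CPM. The correlation with the Rn45s ratio was r = 0.904 and rho = 0.894 over 16 libraries and r was 0.792 without CD 1 and CD 2, given without a p because the gene was picked from all tested genes by this likeness.

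By diet, neither gene passed. Lars2 had a log2 fold change of HFD over CD of -0.03 ± 0.37 (SE, edgeR adjusted p = 0.983) and Mir6236 of -0.52 ± 0.44 (edgeR adjusted p = 0.704). Whether reads of ribosomal RNA were counted in these rows was not tested, because no sequence of the mature ribosomal RNAs was used here.

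**Figure D3:**
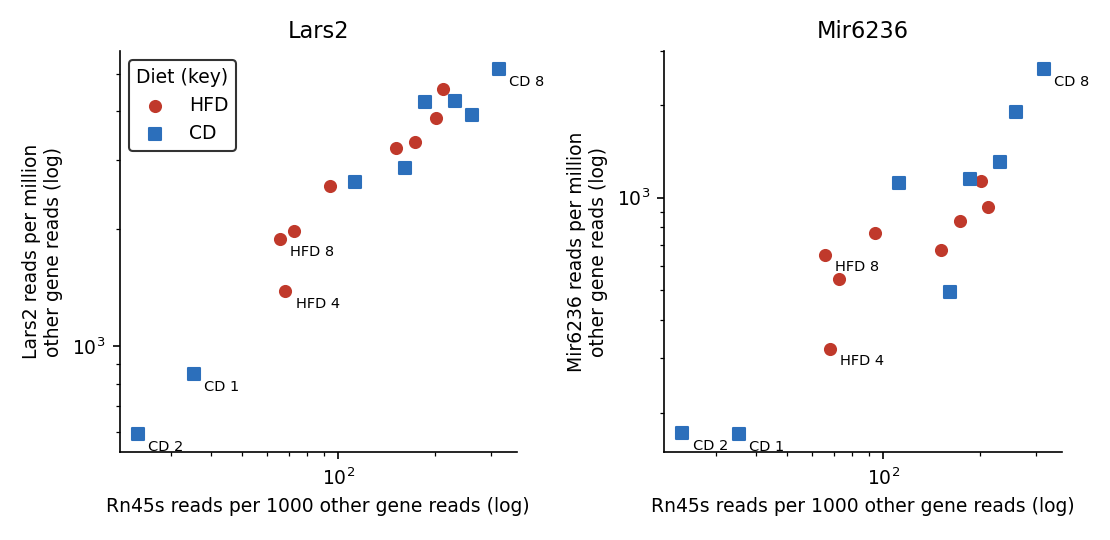
Lars2 (left) and Mir6236 (right) CPM against Rn45s reads per 1000 other gene reads in each HFD (circles) and CD (squares) library, on log axes. CD 2 and CD 1 lie at the low end and CD 8 at the high end of both panels, and Lars2 follows Rn45s more closely (r = 0.976) than Mir6236 does (r = 0.904).

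No other gene of the list known for ribosomal DNA reads passed with 16 libraries. Of the 9 tested, 4 had positive slopes, the median slope was -0.04 against -0.02 for all 13055 genes, and Lars2 was the 1 called. Erdr1, a gene of the pseudoautosomal region with many near-identical copies, had the next highest slope after Lars2 in that list, 0.49 ± 0.16 (edgeR adjusted p = 0.522). It had 14.6, 43.4 and 70.1 CPM as lowest, median and highest in HFD and 20.2, 56.2 and 116 in CD, and without HFD 4 and HFD 8 its slope of 0.57 ± 0.13 passed (edgeR adjusted p = 0.0454). Cdk8, a kinase of the Mediator complex, had a slope of -0.04 ± 0.13, and Gphn, which encodes the synaptic scaffold gephyrin, -0.10 ± 0.09. Rn4.5s, a different small RNA of rodents despite its name, had reads in 1 CD library, at 0.308 CPM, and none in HFD.

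After Lars2 and Mir6236, the genes whose log2 CPM was most like the Rn45s ratio over 16 libraries were Arl2, Ptms, Mef2d, Rin3, Ghrhr, Ncln, Adck4 and Ap2s1, with Pearson r of 0.857 for Arl2 down to 0.791 for Ap2s1. None of these passed the fit, and the likeness is a description, since they were picked from all tested genes by it. Arl2, a small GTPase acting on tubulin folding and mitochondria, had 19.5, 33.2 and 42.9 CPM as lowest, median and highest in HFD and 18.9, 42.9 and 54.9 in CD, with a slope of 0.38 ± 0.08. Mef2d, a MADS-box transcription factor, had 9.36, 26.4 and 37.9 CPM in HFD and 13.1, 34.2 and 42.9 in CD, with a slope of 0.49 ± 0.10. Both had an edgeR adjusted p of 0.432 with 16 libraries. The diets overlapped for both genes. Without HFD 4 and HFD 8, Mef2d (slope 0.45 ± 0.09, edgeR adjusted p = 0.0268) and Rin3 (0.68 ± 0.13, adjusted p = 0.0265), which acts on Rab GTPases in endocytosis, were among the 118 called.

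At the other end stood Dnaja1, Cops2, Smc6, Atp5c1 and H3f3b, with r of -0.903 for Dnaja1 to -0.827 for H3f3b. Dnaja1, a co-chaperone of the heat shock protein Hsp70, had 109, 178 and 228 CPM as lowest, median and highest in HFD and 108, 143 and 302 in CD, the highest being CD 2. Its slope was -0.35 ± 0.06 (edgeR adjusted p = 0.202). Cops2, a subunit of the COP9 signalosome, had a slope of -0.32 ± 0.07, and H3f3b, which encodes the replacement histone H3.3, of -0.28 ± 0.07 (edgeR adjusted p = 0.432 for each). All 5 genes passed without HFD 4 and HFD 8, with slopes of -0.34 ± 0.05 for Dnaja1, -0.28 ± 0.06 for Cops2, -0.28 ± 0.05 for Smc6, -0.26 ± 0.05 for Atp5c1 and -0.25 ± 0.05 for H3f3b and edgeR adjusted p between 0.0189 for Dnaja1 and 0.0325 for Cops2.

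No gene of the machinery that makes and processes the precursor passed with 16 libraries, where 1 of all 13055 tested genes did (0.00766%). Counts of 0 in these lists are therefore near the share of all genes. Among RNA polymerase I and its factors, 0 of 31 tested genes passed and the median slope was -0.0031. Among genes of the small subunit processome, which cuts out 18S RNA, 0 of 48 passed with a median of -0.07, and among those of large subunit assembly 0 of 48 with -0.07. For the snoRNP core and modification enzymes it was 0 of 21 with -0.11, for the exosome and nucleases 0 of 25 with -0.09, and for snoRNA host genes 0 of 19 with -0.0069. Medians of these lists lay within 0.1 of that of all genes tested, -0.02. The summed CPM of the snoRNP list, on the log2 scale, had r = -0.436 with the Rn45s ratio over 16 libraries (permutation p = 0.0918, adjusted over 27 measures 0.207) and -0.730 without HFD 4 and HFD 8 (adjusted permutation p = 0.00996). In CD alone r was -0.916 (adjusted exact permutation p = 0.00234), in HFD alone it was 0.0727, and without CD 1 and CD 2 it was 0.0149. Over 16 libraries the negative r thus depended on CD 1 and CD 2, the libraries lowest in Rn45s. No correlation left these out together with HFD 4 and HFD 8, so their parts were not told apart. Smarca5, an ATPase of the chromatin remodeller NoRC at ribosomal DNA, had a slope of -0.39 ± 0.09 (edgeR adjusted p = 0.432), with 75.7 to 237 CPM in HFD and 71.5 to 225 CPM in CD. Npm1, the nucleolar protein nucleophosmin, had a slope of -0.27 ± 0.09 (edgeR adjusted p = 0.492).

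RNA and protein partners of ribosomal RNA in the ribosome gave similar counts, again beside 0.00766% of all genes tested. Of the cytosolic ribosomal proteins, 0 of 79 tested genes passed, 42 had positive slopes and the median was 0.0053. Rpl41 had a slope of 0.21 ± 0.08 (edgeR adjusted p = 0.627). Of the 5S ribonucleoprotein and RNA polymerase III factors, 0 of 24 passed with a median of -0.0026. Their sum had r = -0.0571 over 16 libraries (adjusted permutation p = 0.839), -0.820 without HFD 4 and HFD 8 (adjusted permutation p = 0.00225) and -0.881 in CD alone (adjusted exact permutation p = 0.00234), but 0.366 without CD 1 and CD 2 and 0.455 in HFD alone. Structural RNAs formed a further list, all made by RNA polymerase III except Terc, the telomerase RNA, which RNA polymerase II makes. Of these, 1 of 7 with a row passed the filter, Rpph1, the RNA of ribonuclease P, with 0.642 to 15.1 CPM in HFD and 0.450 to 8.11 CPM in CD. Rpph1 had only 2 to 37 reads per library, and its record overlaps Ccnb1ip1 on the same strand. The sum of the 7 had r = 0.594 over 16 libraries (adjusted permutation p = 0.0863), 0.893 without HFD 4 and HFD 8 (adjusted permutation p = 0.00027) and 0.907 in CD alone (adjusted exact permutation p = 0.0107), but 0.232 without CD 1 and CD 2 and -0.0957 in HFD alone. Nuclear long noncoding RNAs had a median slope of 0.24 over 8 genes, 7 of them positive and 0 called, among them Kcnq1ot1, an antisense RNA of an imprinted domain, at 0.32 ± 0.13 (edgeR adjusted p = 0.634).

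Without HFD 4 and HFD 8, where 0.880% of all genes were called, 11 different genes of all lists passed. These were Lars2 and Erdr1, Rpph1 with a slope of 1.15 ± 0.24, the ribosomal protein genes Rpl36 with 0.25 ± 0.06 and Rpl5 with -0.21 ± 0.05, and the RNA-binding La protein gene Ssb with -0.36 ± 0.07. Brix1, a large subunit assembly factor, had -0.35 ± 0.08 and Smarca5 -0.31 ± 0.07. Outside ribosome synthesis, Tyrobp, a signalling adaptor of myeloid cells, had 0.63 ± 0.12, H2-Aa, an MHC class II chain, 0.44 ± 0.10 and Alas2, the erythroid enzyme of haem synthesis, 0.44 ± 0.10. Adjusted p of edgeR for these lay at or under 0.0456. By list that was 2 of 24 for the 5S ribonucleoprotein and RNA polymerase III factors (Rpl5, also counted among ribosomal proteins, and Ssb). It was 1 of 31 for RNA polymerase I and its factors, 1 of 48 for large subunit assembly and 2 of 79 for ribosomal proteins. For leukocytes it was 2 of 18, for erythroid genes 1 of 2 and for the structural RNAs 1 of 1. Of the 8 erythroid genes with a row, 5 were at 0 in every library, the globin genes Hba-a1, Hba-a2, Hbb-bs, Hbb-bt and Hbb-b1.

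**Figure D4:**
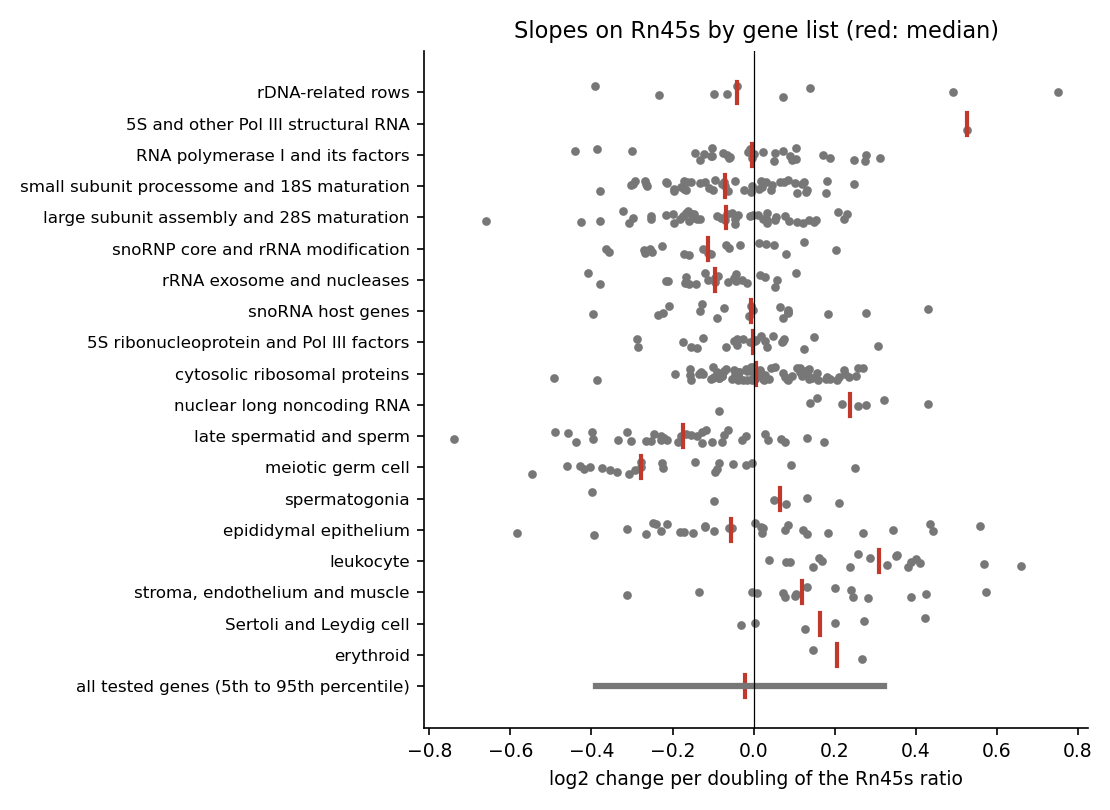
Slope of each tested gene on the Rn45s ratio (points, log2 units per doubling, 16 libraries) by gene list, with the median of each list (red lines) and the 5th to 95th percentile of all 13055 tested genes (bottom bar). Lists of ribosome synthesis centre near the median of all genes, -0.02, while Lars2 at 0.75 lies far to the right in the first list.

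Leukocyte genes had positive slopes that missed the threshold with 16 libraries. All 18 tested genes of the 24 listed had a slope above 0, with a median of 0.31 against -0.02 for all genes, and 0 passed with 16 libraries and 2 with 14. Their sum was 458 to 1830 CPM in HFD and 313 to 1422 CPM in CD, lowest in CD 2 and highest in HFD 8, and 0 of the 23 leukocyte genes with a row were at 0 in every library. The correlation of the log2 sum with the Rn45s ratio was r = 0.601 over 16 libraries (permutation p = 0.0145, adjusted 0.0863), 0.307 without CD 1 and CD 2, and 0.819 without HFD 4 and HFD 8 (adjusted permutation p = 0.00324). Within diets it was 0.274 in HFD, where rho was -0.0238, and 0.816 in CD. Late spermatid genes had a median slope of -0.17 with 16 libraries and 0.35 without HFD 4 and HFD 8, and meiotic genes -0.28 and 0.13, so the sign of both lists turned on those libraries. The part of these cell types in the level of Rn45s was not tested.

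Base composition separated genes with positive from genes with negative slopes. Genes with a positive slope and an unadjusted p under 0.05 had a median GC content of 56.1% in their longest annotated transcript, those with a negative slope 43.3%, and all tested genes 49.3%. Among genes called in the fit that left out HFD 4 and HFD 8, median GC was 56.9% for positive and 41.7% for negative slopes. By deciles of genes in order of GC content, the median slope was higher at every step, with -0.13 in the lowest decile (median GC 39.7%) and 0.14 in the highest (59.0%). Across 12430 genes, which are not independent of each other, the Spearman correlation of GC content with slope was 0.399, and that of transcript length with slope 0.141. Without HFD 4 and HFD 8 these were 0.399 and 0.00797.

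Libraries with much Rn45s also had other gene reads that came, on average, from genes of higher transcript GC content. The GC content of the reads themselves was not measured. The mean GC content of transcripts, weighted by the reads of genes other than Rn45s, was 47.7% to 48.4% in HFD and 47.4% to 48.7% in CD. Its correlation with the Rn45s ratio was r = 0.870 and rho = 0.824 over 16 libraries (permutation p = 2e-05 and 0.00016), 0.759 without CD 1 and CD 2 and 0.919 without HFD 4 and HFD 8. Within diets it was 0.973 in CD and 0.544 in HFD, where the exact permutation p was 0.158. These p are descriptive, because the relation was added after the data were seen. Nor is it separate from the slopes by GC content above, since both rest on the same gene reads. Weighted by log2 CPM, which lessens the pull of a few abundant genes, r was 0.879 over 16 libraries, 0.877 in HFD and 0.966 in CD. Lars2, at 51.2% GC, lay near the median of all tested genes in GC content and had the highest r of all genes. What the differences in transcript GC content between libraries came from was not tested.

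**Figure D5:**
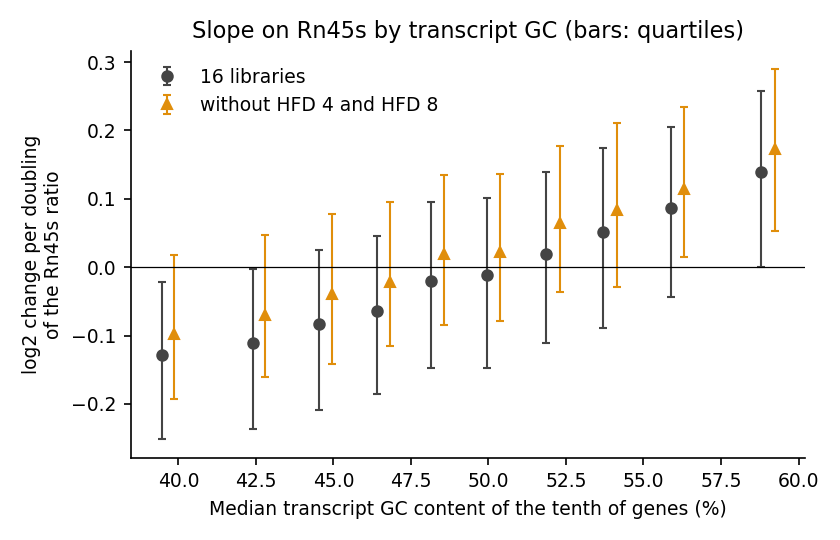
Median slope of genes on the Rn45s ratio (points, with quartiles as bars) in deciles of genes by GC content of the longest transcript, for 16 libraries and for 14 without HFD 4 and HFD 8, whose points are drawn slightly to the right of their decile. The median rises with GC content, with -0.13 in the lowest and 0.14 in the highest decile for 16 libraries.

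By diet, no gene of ribosome synthesis passed. edgeR called 0 of 13149 genes (0%) between HFD and CD, with 1482 (11.3%) at an unadjusted p under 0.05, and DESeq2 called 1. Without HFD 4 and HFD 8, edgeR called 0 of 13448, with 292 (2.17%) at an unadjusted p under 0.05. Median log2 fold changes of HFD over CD were -0.06 for RNA polymerase I and its factors, -0.04 for the small subunit processome, -0.08 for large subunit assembly, -0.11 for snoRNP genes and -0.10 for ribosomal proteins, against -0.0042 for all genes. The exosome and nucleases had a median of 0.22, with 17 of 25 positive and 5 at an unadjusted p under 0.05. Among them Papd5, a poly(A) polymerase that tags RNA for decay, had 59.9, 80.0 and 314 CPM as lowest, median and highest in HFD and 58.3, 73.2 and 95.1 in CD, with a log2 fold change of 0.83 ± 0.34 (edgeR adjusted p = 0.434). HFD 4 and HFD 8 were its highest libraries, at 259 and 314 CPM, and without them the log2 fold change was 0.15 ± 0.19. Npm1 had a log2 fold change of -0.08 ± 0.23 and Ncl, which encodes nucleolin, of -0.38 ± 0.23 (edgeR adjusted p = 0.912 and 0.559).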

How the data were processed

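The authors deposited unscaled counts of reads for each of 24062 gene symbols in 16 libraries, followed by 5 summary rows of the counting program. Tools named without a role, per the submitters' processing notes, are DESeq2 1.0.19, HTSeq 1.0.0 and STAR, and the build is mm10. The sources used here give neither annotation nor strand setting, and genes that overlap on opposite strands may therefore share reads. No molecular identifier is named, so amplified copies count as reads, and intervals cover counting error only. Gene reads per library ran from 1882555 to 7783981.

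Summary rows stayed out of library sizes and tests. The share of Rn45s was its count over the gene total. Rn45s and the gene lists were chosen with earlier results of these data known. For the diet comparison, edgeR 4.0.16 was run under R 4.3.3 (TMM, default filter by diet, robust quasi-likelihood F-test, two-sided, Benjamini-Hochberg over all tested genes, threshold 0.05). Slopes came from the same test on the log2 ratio of Rn45s to other gene counts with diet as a term, with Rn45s left out of filter and scaling. Likeness used log2 CPM with a prior count of 2. Single-gene CPM are TMM-scaled over genes other than Rn45s, except where stated, and list sums carry no TMM. Sums entered correlations as log2(CPM + 1). Correlations used 100000 permutations, or all orders for 8 libraries, and 4 summary shares all 12870 assignments of libraries to diets. GC content is that of the longest GENCODE M21 transcript. The fits were tested on simulated data.

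Named genes were the rows of the ribosomal DNA list, the 10 genes most and 5 least like Rn45s, called genes, the 3 genes next in mean share, and the 3 most abundant of each list of ribosome, RNA polymerase III and nuclear RNA genes. A gene that this rule names is not reported here. List members called without HFD 4 and HFD 8 were named after their values were seen. In 56 pairs of libraries of one diet, chi-square per degree of freedom was at least 12.7, so no library was a second copy. Alternatives were DESeq2 1.42.0, scaling, filter, the Rn45s measure, a block and left-out libraries. The fits without HFD 4 and HFD 8 for the difference of slopes, the late spermatid covariate, and the GC, Lars2 and Mir6236 relations were added after the data were seen.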

Additional observations from a re-analysis of the deposited data

Results flagged for a closer look

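In 6 of 58 groups of 8 libraries, 1 library lay far from the other 7 of its diet. Chance gives about 1 in 20 for independent groups, and these are not independent, with CD 2 the outlying library in 4 of the 6. HFD 3 held 30.7% of multiply aligned reads. CD 2, the library with the least Rn45s, stood apart with 19.6% of all reads in genes other than Rn45s and with 7783981 gene reads. CD 2 was also the high outlier of its diet for Dnaja1, at 302 CPM, and for H3f3b, at 595 CPM. Adck4, a mitochondrial kinase-like gene, reached 32.3 CPM in HFD 5.

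The slope on Rn45s differed between HFD and CD libraries for 530 of 13055 genes (4.06%) by edgeR's quasi-likelihood test of the difference. It was higher in HFD for 6 genes and lower for 524, and all 530 lay just under the threshold, with edgeR adjusted p between 0.0484 and 0.0499. Without HFD 4 and HFD 8 (a fit added after seeing the data) 0 of 13404 genes passed and 218 had an unadjusted p under 0.05. Of the late spermatid list, 8 of 36 tested genes were among the 530, and of the meiotic list 3 of 23. Of ribosome synthesis, 1 gene each of large subunit assembly, the snoRNP core, the exosome and the ribosomal proteins was among them.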

How the results depend on the processing

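The count of genes related to Rn45s, 1 with edgeR, was 73 with DESeq2, 118 without HFD 4 and HFD 8 and 226 with the late spermatid sum held. It was 2 without TMM or without the diet term, and 0 with a replicate block, with Rn45s as a share of all reads or in HFD alone, and 0 to 2 with 1 library left out, 0 without CD 1 or CD 2 and 2 without HFD 8 or CD 5. Replicate numbers were not taken as pairs in the main fits. Same-numbered deviations correlated at -0.39 to 0.61, with 4 pairs over 0.1, and 2 HFD libraries correlated best with their own number. These values cannot decide whether libraries of one number were handled together. The block left the Rn45s difference at -0.04 and diet calls at 0, and DESeq2 gave 1 diet call. The difference of slopes, 530 genes, was 0 without HFD 4 and HFD 8. Of 27 library measures 1 passed, the ribosomal DNA list that holds Lars2. Lars2 made up most of that sum, with means of 2848 of 3701 CPM in HFD and 3056 of 4025 CPM in CD. The list was written with earlier results known, so its passing is a description. The measures that passed numbered 7 without CD 1 and CD 2, 9 without HFD 4 and HFD 8 and 7 in CD alone. They numbered 1 to 6 with 1 library left out, with 6 without HFD 4, 3 without HFD 8 and 3 without CD 1. Summary shares past the threshold numbered 0 to 2, with 2 without HFD 3.

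Signs that turned were those of the correlation with other gene reads in percent (0.13 in HFD alone), the RNA polymerase III list (-0.10 in HFD alone) and the snoRNP list (0.0149 without CD 1 and CD 2, 0.0727 in HFD alone). The diet difference in percent of other gene reads was 0.066 without HFD 4 and HFD 8 and -1.38 to 0.31 with 1 library left out, and that of ambiguous reads -0.00438 to 0.00181. The log2 diet difference of Lars2 was 0.18 with the block, 0.24 with Rn45s held, 0.13 without HFD 4 and HFD 8 and -0.18 to 0.13 with 1 library left out. The cause was not tested. Of 808 single values under alternatives, 726 kept direction and side of the threshold, 59 passed newly, 5 no longer passed and 18 turned sign. Adjusted p of the Lars2 slope in edgeR was 0.0925 with the block and 0.0568 with Rn45s as a share of all reads. The length and copies of Rn45s limit what its reads say of level.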
